A study of Mus musculus with 9 samples.

Results

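Aquaporins are membrane channels that let water, and in some members glycerol, ammonia or hydrogen peroxide, cross a cell membrane. The 8 aquaporin genes Aqp1, Aqp3, Aqp4, Aqp5, Aqp7, Aqp8, Aqp9 and Aqp11 were followed in mouse duodenal organoids that overexpressed a human hypoxia-inducible factor (HIF). They were taken by gene symbol from the 46517 genes of each deposited table. The rule itself uses no measured value, but the 8 symbols were chosen with earlier results of these data known, and they leave out 4 family genes with almost no reads (Aqp2, Aqp6, Aqp12 and Mip). Of the 8 genes, Aqp8 and Aqp3 rose in organoids with Ad-hHIF2, neither passed the test with Ad-hHIF1, and Aqp5 was the highest per length in the Ad-GFP controls.

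The study asked how the HIFs act on the intestinal epithelium by sequencing RNA from organoids made from duodenal crypts of wild type C57BL/6J mice. The 9 samples form 3 groups of 3, labelled with the replicate numbers 1, 3 and 4 in each group. Dissociated organoid cells received an adenovirus at 50 particles per cell and were harvested about 72 hours later. Ad-GFP (label Adeno-GFP) carried a fluorescent protein as the control, Ad-hHIF2 (label Adeno-hHIF2) carried human HIF2, and Ad-hHIF1 (label Adeno-HhHIF1) carried human HIF1. Both HIF proteins had their regulatory prolines replaced by alanine, so that the von Hippel-Lindau protein cannot mark them for degradation. All 3 groups, controls included, went through virus exposure, dissociation, 5% oxygen, conditioned medium with Wnt3a, R-spondin 3 and noggin, a ROCK inhibitor, a TGF-β receptor inhibitor and nicotinamide. The delivery was transient, and which cells of an organoid took up a vector was not measured in these files. The study calls the Ad-hHIF2 and Ad-GFP samples biological replicates, and the labels do not say which samples came from separate mice.

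The aquaporins fall into families by what they carry. Aqp1, Aqp4 and Aqp5 are mainly water channels, Aqp8 carries water, ammonia and hydrogen peroxide, and Aqp3, Aqp7 and Aqp9 are aquaglyceroporins that also carry glycerol. Aqp11 is an unorthodox member that sits in the endoplasmic reticulum. In the gut, Aqp8 and Aqp3 are known from the absorbing epithelium, with Aqp3 on the basolateral side. HIFs bind DNA at the hypoxia response element, whose core reads ACGTG or GCGTG.

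The promoters of the 2 genes that rose are shown because they differ in this core. RefSeq promoter windows (GRCm38.p6) were found for 7 of the 8 genes, all but Aqp4, and Aqp7 and Aqp9 have 2 each. The 250 bases before the transcription start are printed 5′ to 3′ on the gene's strand, at chr7:123462044-123462293 on the plus strand for Aqp8 and chr4:41098184-41098433 on the minus strand for Aqp3. Capitals mark each match to ACGTG or GCGTG on either strand, so that CACGT and CACGC are matches on the opposite strand.
Aqp8: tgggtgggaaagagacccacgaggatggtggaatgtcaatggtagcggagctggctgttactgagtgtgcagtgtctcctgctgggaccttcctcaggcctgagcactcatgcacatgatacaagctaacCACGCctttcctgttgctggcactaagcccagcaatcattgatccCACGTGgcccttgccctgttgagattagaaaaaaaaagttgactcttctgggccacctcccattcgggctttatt
Aqp3: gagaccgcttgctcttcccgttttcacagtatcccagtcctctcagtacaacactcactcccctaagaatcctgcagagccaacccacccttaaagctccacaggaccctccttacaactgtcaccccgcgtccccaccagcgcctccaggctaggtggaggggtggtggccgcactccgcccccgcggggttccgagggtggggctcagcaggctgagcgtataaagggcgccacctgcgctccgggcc
The Aqp8 window held GCGTG once, on the opposite strand at -120 to -116 from the start. It also held CACGTG at -75 to -70, which reads as ACGTG on both strands with 4 shared bases. By the study's account, a core with a C before it makes an E-box, a site of other transcription factor families that HIFs seldom recognise. The Aqp3 window held neither motif. Among the other genes, the window of Aqp5 held 5 matches, that of Aqp11 held 5 and a single window of Aqp9 held 1, while those of Aqp1 and Aqp7 held none. Of all 32851 promoter windows of this length, 38.6% held at least 1 of the motifs, 16.6% held ACGTG and 28.2% held GCGTG.

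Library totals ran from 21722618 to 51119041 expected counts, so that 3 counts, the limit that a count of 0 allows, corresponded to 0.0588 to 0.15 CPM, the read count scaled to the normalised library size. The reads of the mouse gene Epas1, which encodes HIF2α, stood at 604 to 757 CPM in Ad-hHIF2 and 1.47 to 3.06 CPM in the other samples. Those of Hif1a stood at 299 to 319 CPM in Ad-hHIF1 and 197 to 251 CPM in the others. Reads of the human transgene and of the mouse gene cannot be told apart in these values. Duodenal region genes (Pdx1, Gata4 and Onecut2) summed to 102 to 115 CPM in Ad-GFP, 109 to 120 CPM in Ad-hHIF1 and 159 to 172 CPM in Ad-hHIF2, so that the Ad-hHIF2 samples lay above all others. The marker lists of single lineages ranged widely in level, with summed levels of 0.366 to 2.0 CPM for the 5 stem cell genes, 0.0499 to 0.464 CPM for the 5 Paneth genes and 5.14 to 9.82 CPM for the 8 enterocyte genes. The 4 tuft genes summed to 45.9 to 57.8 CPM, nearly all of it Avil, the 4 fibroblast genes to 6.72 to 12.5 CPM, the 4 colon region genes to 1.18 to 3.02 CPM and the 4 enteroendocrine genes to at most 0.249 CPM, and for these lists the groups of Ad-hHIF2 and Ad-GFP overlapped. Ad-hHIF1 replicate 3 stood apart from the rest in that the satellite-like transcripts Gm10800 and Gm26870 took 15.96% of its counts, against 0.43% to 4.28% in the other samples.

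Aqp8 (chr7:123462291-123468004 on GRCm38, plus strand) had the largest difference among the 8 genes. In Ad-GFP its level was 1.07, 0.443 and 0.0999 CPM in replicates 1, 3 and 4, which rest on 39, 16 and 2 expected counts. In Ad-hHIF2 it was 16, 21.9 and 18.8 CPM, from 698, 1119 and 582 expected counts. In Ad-hHIF1 it was 0.669, 0.350 and 0.869 CPM. All Ad-hHIF2 samples lay above all others, and the Ad-GFP and Ad-hHIF1 samples overlapped. The means were 0.536 ± 0.489 CPM in Ad-GFP, 18.9 ± 3.00 CPM in Ad-hHIF2 and 0.629 ± 0.262 CPM in Ad-hHIF1 (SD, n = 3 in each). Aqp8 rose in Ad-hHIF2 against Ad-GFP by a log2 fold change of 4.98 (SE 0.388, edgeR adjusted p = 4.55e-05), a fold of 31.5 with a 95% confidence interval of 17.1 to 58.2. Here and for all genes, a call stands for a change of 2-fold or more with an adjusted p under 0.05, adjusted over all genes tested. With any single sample left out the log2 fold change stayed between 4.65 and 5.90, with an adjusted p of at most 0.000747. The lowest control sample, Ad-GFP replicate 4, was under the limit of 3 counts.

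Aqp8 is known from enterocytes, so the enterocyte list was read beside it. The 8 enterocyte genes summed to 8.63 to 9.82 CPM in Ad-hHIF2 and 5.14 to 7.65 CPM in Ad-GFP. Of the 5 tested, 1, Apoa4, was called higher, beside 2.9% of all genes tested. Its mean went from 0.0122 CPM in Ad-GFP to 2.49 CPM in Ad-hHIF2. Vil1, the highest of the list, had means of 4.36 CPM in Ad-GFP and 3.99 CPM in Ad-hHIF2. With at most 1.32 expected counts in Ad-GFP, Apoa4 passed the count filter through its Ad-hHIF2 samples. The list did not move one way. Alpi, too low to be tested, stood at 0.178 ± 0.0701 CPM in Ad-hHIF2 against 0.00923 ± 0.016 CPM in Ad-GFP (SD, n = 3 in each). Its Ad-GFP samples had at most 1 expected count, under the limit of 3 counts, so no order of groups is given for it. Fabp2 stood at 0.148 ± 0.121 CPM in Ad-hHIF2 against 0.502 ± 0.144 CPM in Ad-GFP (SD, n = 3 in each; edgeR adjusted p = 0.0837). Its groups did not overlap, as was so for 45.8% of all genes tested. Fabp1 was at 0 in all Ad-hHIF2 samples and had at most 1 expected count in Ad-GFP. The 5 goblet genes summed to 1.54 to 2.13 CPM in Ad-hHIF2 and 4.82 to 7.59 CPM in Ad-GFP, nearly all of it Muc2. The 3 Brunner gland genes summed to 1.98 to 2.1 CPM and 0.546 to 1.05 CPM, with Tff2 called higher at 2.58 and Muc6 at -0.78 and not called. The 4 leukocyte genes summed to 2.93 to 4.39 CPM in Ad-hHIF2, above the 1.6 to 2.52 CPM of Ad-GFP and the 0.516 to 1.29 CPM of Ad-hHIF1, with Csf1r called higher at 1.46 (edgeR adjusted p = 0.0475), Ptprc called lower at -3.92 (adjusted p = 0.00472) and Cd3e near 0. The part of cell type in the Aqp8 result was not tested. In bulk RNA, more cells of a type and more RNA per cell cannot be told apart.

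**Figure D1:**
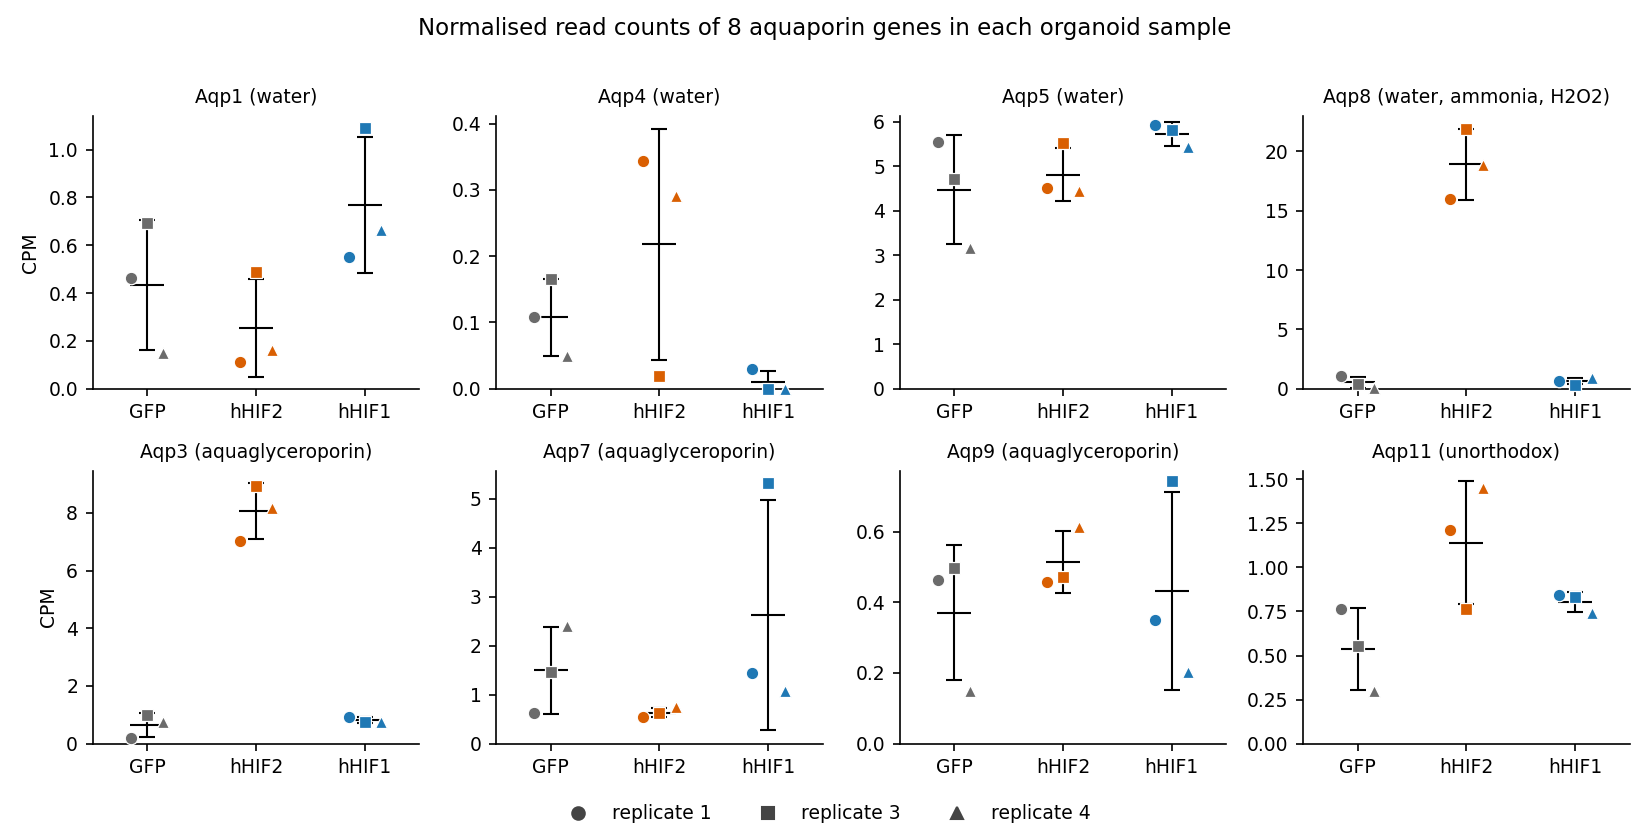
Normalised read counts (CPM, linear axes from 0, a scale of its own in each panel) of the 8 aquaporin genes in the 9 samples, with groups on the horizontal axis, symbols for replicates 1, 3 and 4, and black bars for the mean ± SD of 3 samples. Aqp8 at 16 to 21.9 CPM and Aqp3 at 7.02 to 8.94 CPM in Ad-hHIF2 stand above all samples of the other groups, and the Aqp7 mean in Ad-hHIF1 is set by replicate 3 at 5.32 CPM.

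Aqp5, the water channel of secretory glands, is the member whose level per length led in the controls. It lies at chr15:99590782-99594829 (plus strand) between Aqp2, which ends 6234 bases before it, and Aqp6, which begins 6570 bases after it. Its level was 5.54, 4.71 and 3.15 CPM in Ad-GFP, 4.50, 5.51 and 4.43 CPM in Ad-hHIF2 and 5.93, 5.82 and 5.42 CPM in Ad-hHIF1. All 3 groups overlapped. The log2 fold change was 0.10 (SE 0.216, adjusted p = 0.762) in Ad-hHIF2 against Ad-GFP, with a 95% interval of the fold from 0.763 to 1.51. The upper bound lay below the lower bound of the fold of Aqp8. Of its neighbours on the chromosome, Aqp6 was at 0 in every sample and Aqp2 had at most 3 expected counts.

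Aqp1, the water channel of red blood cells, endothelium and kidney tubules, lies at chr6:55336432-55348555 (plus strand). It stood at 0.464, 0.692 and 0.150 CPM in Ad-GFP and at 0.114, 0.490 and 0.162 CPM in Ad-hHIF2, and these groups overlapped. In Ad-hHIF1 it was at 0.552, 1.09 and 0.664 CPM, all above the Ad-hHIF2 samples. The log2 fold change was -0.77 (SE 0.704, adjusted p = 0.45) in Ad-hHIF2 against Ad-GFP and -1.53 (SE 0.69, adjusted p = 0.134) in Ad-hHIF2 against Ad-hHIF1. The 4 endothelial genes summed to 0.393 to 0.412 CPM in Ad-hHIF2, below the 0.485 to 0.662 CPM of Ad-GFP and the 0.651 to 1.43 CPM of Ad-hHIF1. All 4 were below 1 CPM in every sample. In Ad-hHIF2 against Ad-GFP, 0 were tested, the groups of each single gene overlapped, and Emcn had the higher mean in Ad-hHIF2. Their part in the Aqp1 values was not tested. The 4 red blood cell genes summed to at most 1.60 CPM in any sample.

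Aqp4, the water channel of astrocytes, had 4, 6 and 1 expected counts in Ad-GFP, 15, 1 and 9 in Ad-hHIF2 and 1, 0 and 0 in Ad-hHIF1. It did not pass the count filter in any comparison and was the only member that did not. No fold or order of groups is given for Ad-hHIF1 against Ad-GFP, since the Ad-hHIF1 samples and 1 Ad-GFP sample were under the limit of 3 counts.

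Aqp3 (chr4:41092722-41098183, minus strand) carries water, glycerol and hydrogen peroxide. Its level was 0.191, 0.997 and 0.749 CPM in Ad-GFP, from 7, 36 and 15 expected counts. In Ad-hHIF2 it was 7.02, 8.94 and 8.18 CPM, from 307, 456 and 253 expected counts. In Ad-hHIF1 it was 0.930, 0.743 and 0.767 CPM. Here too the Ad-hHIF2 samples lay above all others while Ad-GFP and Ad-hHIF1 overlapped. Aqp3 rose in Ad-hHIF2 against Ad-GFP by a log2 fold change of 3.67 (SE 0.407, adjusted p = 0.000325), a fold of 12.7 with a 95% interval of 6.69 to 24.2. With any single sample left out it stayed between 3.17 and 4.29, with an adjusted p of at most 0.00266.

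Aqp7 (chr4:41033074-41048139, minus strand), the channel through which fat cells release glycerol, is the neighbour of Aqp3, with 44582 bases between them. Its level was 0.632, 1.47 and 2.40 CPM in Ad-GFP and 0.540, 0.628 and 0.739 CPM in Ad-hHIF2. In Ad-hHIF1 it was 1.45, 5.32 and 1.08 CPM, where replicate 3 had 121.68 expected counts against 50.03 and 42.13 in the other two. The 3 groups overlapped, except that all Ad-hHIF2 samples lay below all Ad-hHIF1 samples. Its estimate in Ad-hHIF2 against Ad-GFP was -1.19 on the log2 scale (SE 0.494, adjusted p = 0.102), with overlapping groups. Without Ad-GFP replicate 1 the value was -1.58 with an adjusted p of 0.028. Aqp7 was also the only member with expected counts that were mostly not whole, as RSEM gives where reads are shared out between sequences.

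Aqp9 (chr9:71110659-71168682, minus strand), through which liver cells take up glycerol, stood at 0.464, 0.498 and 0.150 CPM in Ad-GFP. It was at 0.457, 0.471 and 0.614 CPM in Ad-hHIF2 and at 0.349, 0.743 and 0.204 CPM in Ad-hHIF1, and all 3 groups overlapped. The log2 fold change in Ad-hHIF2 against Ad-GFP was 0.41 (SE 0.507, adjusted p = 0.583), with an interval of the fold from 0.596 to 2.95. GENCODE M21 lists 2 genes that overlap Aqp9 on the opposite strand, and the strandedness of the libraries is not given in the sources used here, so reads of these genes may be counted together.

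Aqp11 (chr7:97724006-97738289, minus strand), whose loss in mice gives cystic kidneys, stood at 0.765, 0.554 and 0.300 CPM in Ad-GFP. In Ad-hHIF2 it was 1.21, 0.765 and 1.45 CPM, and in Ad-hHIF1 0.843, 0.831 and 0.741 CPM. The Ad-hHIF2 samples lay above the Ad-GFP samples, with the lowest of the first only just above the highest of the second. The log2 fold change was 1.03 (SE 0.441), but the adjusted p of 0.113 did not pass. With library totals in place of TMM factors it was 1.3 with an adjusted p of 0.0375 and was called. With limma the adjusted p was 0.0062 on the log2(TPM + 1) scale, at 0.15, and 0.0146 on the log2(TPM + 0.1) scale, at 0.75, both under 2-fold. Over its other alternatives the adjusted p lay between 0.0959 and 0.295.

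Of the 7 members tested in Ad-hHIF2 against Ad-GFP, 2 were called higher and 0 lower. Over all 14987 genes tested, 2.9% were called higher, 3.83% lower and 6.73% in either direction. The groups did not overlap for 3 members, all higher in Ad-hHIF2, against 23.4% of all genes tested that were higher and not overlapping and 45.8% in either direction. An unadjusted p below 0.05 was found for 4 members, against 41.2% of all genes, and an adjusted p below 0.05 for the called pair only, against 29.5%. The median log2 fold change of the members was 0.41, beside -0.01 over all genes.

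In Ad-hHIF1 against Ad-GFP, edgeR called 0 of the 7 tested members and 0 (0%) of the 15233 genes tested. At an unadjusted p below 0.05 it found 0 members, against 1308 genes or 8.59% of all. DESeq2 and limma-voom also called 0 members, and each called 1 gene in all. Aqp8 differed by 0.20 on the log2 scale (SE 0.759, adjusted p = 0.95) and its fold had a 95% interval of 0.342 to 3.88. Aqp3 differed by 0.34 (SE 0.615, adjusted p = 0.88), with an interval of the fold from 0.475 to 3.39. These intervals do not exclude changes of more than 3-fold in Aqp8 and Aqp3, and both upper bounds lie under the lower bounds measured with Ad-hHIF2. The narrowest interval was that of Aqp5, at a log2 fold change of 0.35 (SE 0.22, adjusted p = 0.673) and a fold of 0.894 to 1.81. Aqp1 at 0.76, Aqp7 at 0.81, Aqp9 at 0.15 and Aqp11 at 0.55 were not called either. The groups overlapped for all 7 tested members, while 17.4% of all genes tested had groups that did not, 8.34% higher and 9.01% lower in Ad-hHIF1.

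The Ad-GFP samples are shared by both comparisons above, so the HIFs were also set against each other directly. Mean reads of Epas1 went from 1.77 CPM in Ad-GFP to 672 CPM in Ad-hHIF2, and those of Hif1a from 220 CPM in Ad-GFP to 309 CPM in Ad-hHIF1. The part of this unequal rise in the comparisons with Ad-hHIF1 was not tested. Calls put 2 of the 7 tested members above their Ad-hHIF1 level in Ad-hHIF2 and 1 below it, beside 2.42% and 3.7% of the 15556 genes tested and 6.11% in either direction. The same 3 members were those with an adjusted p below 0.05 whatever the fold, against 25.8% of all genes, and those with an unadjusted p below 0.05, against 37.4%. Aqp8 was higher in Ad-hHIF2 by 4.84 on the log2 scale (SE 0.45, adjusted p = 3.7e-05), a fold of 28.7 with an interval of 14.3 to 57.3. Aqp3 was higher by 3.30 (SE 0.415, adjusted p = 0.000298), a fold of 9.82 with an interval of 5.18 to 18.6. The groups did not overlap for 4 members, Aqp8 and Aqp3 above and Aqp7 and Aqp1 below, against 41.8% of all genes tested, 22.7% above and 19.1% below. Aqp5 at -0.25, Aqp9 at 0.28 and Aqp11 at 0.50 were not called.

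Aqp7 was lower in Ad-hHIF2 by a log2 fold change of -2.01 (SE 0.652, adjusted p = 0.0456), with groups that did not overlap. Without Ad-hHIF1 replicate 3 the log2 fold change was -1.0 with an adjusted p of 0.209. The call was also lost without Ad-GFP replicate 3 (adjusted p = 0.0666) and without Ad-hHIF2 replicate 1 (adjusted p = 0.137), replicate 3 (adjusted p = 0.119) or replicate 4 (adjusted p = 0.0988). In all, 10 of 22 alternatives lost it, limma-voom and the replicate number as a block among them. Ad-hHIF1 replicate 3 is the sample with the most satellite-like transcripts, and within each group the samples had the same order by that share as by Aqp7. The share was 1.77%, 2.89% and 4.12% in replicates 1, 3 and 4 of Ad-GFP, 0.43%, 1.38% and 2.02% in Ad-hHIF2 and 4.28%, 15.96% and 1.15% in Ad-hHIF1. It thus moved with Aqp7 in the comparison with Ad-GFP as well, where the means of both were lower in Ad-hHIF2, and its part in the Aqp7 values was not tested. One marker list of another cell type, with values not reported here, was also lower in all Ad-hHIF2 samples than in all others. That list had the same order within each group as Aqp7 and was highest in Ad-hHIF1 replicate 3, and its part was not tested. The 4 fat cell genes summed to 5.90 to 7.31 CPM in Ad-hHIF2, 8.66 to 10.4 CPM in Ad-hHIF1 and 8.09 to 10.1 CPM in Ad-GFP, nearly all of it Cidec, while Plin1 and Adipoq were at 0 or near it. Between the HIFs, Cidec, a lipid droplet gene, was on the low side with Ad-hHIF2 too, at -0.54 (adjusted p = 0.0145, under 2-fold), with groups that did not overlap. Within Ad-hHIF1 it ran from 8.6 to 10.4 CPM, a far narrower range than the 1.08 to 5.32 CPM of Aqp7, and its part in the Aqp7 value was not tested.

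**Figure D2:**
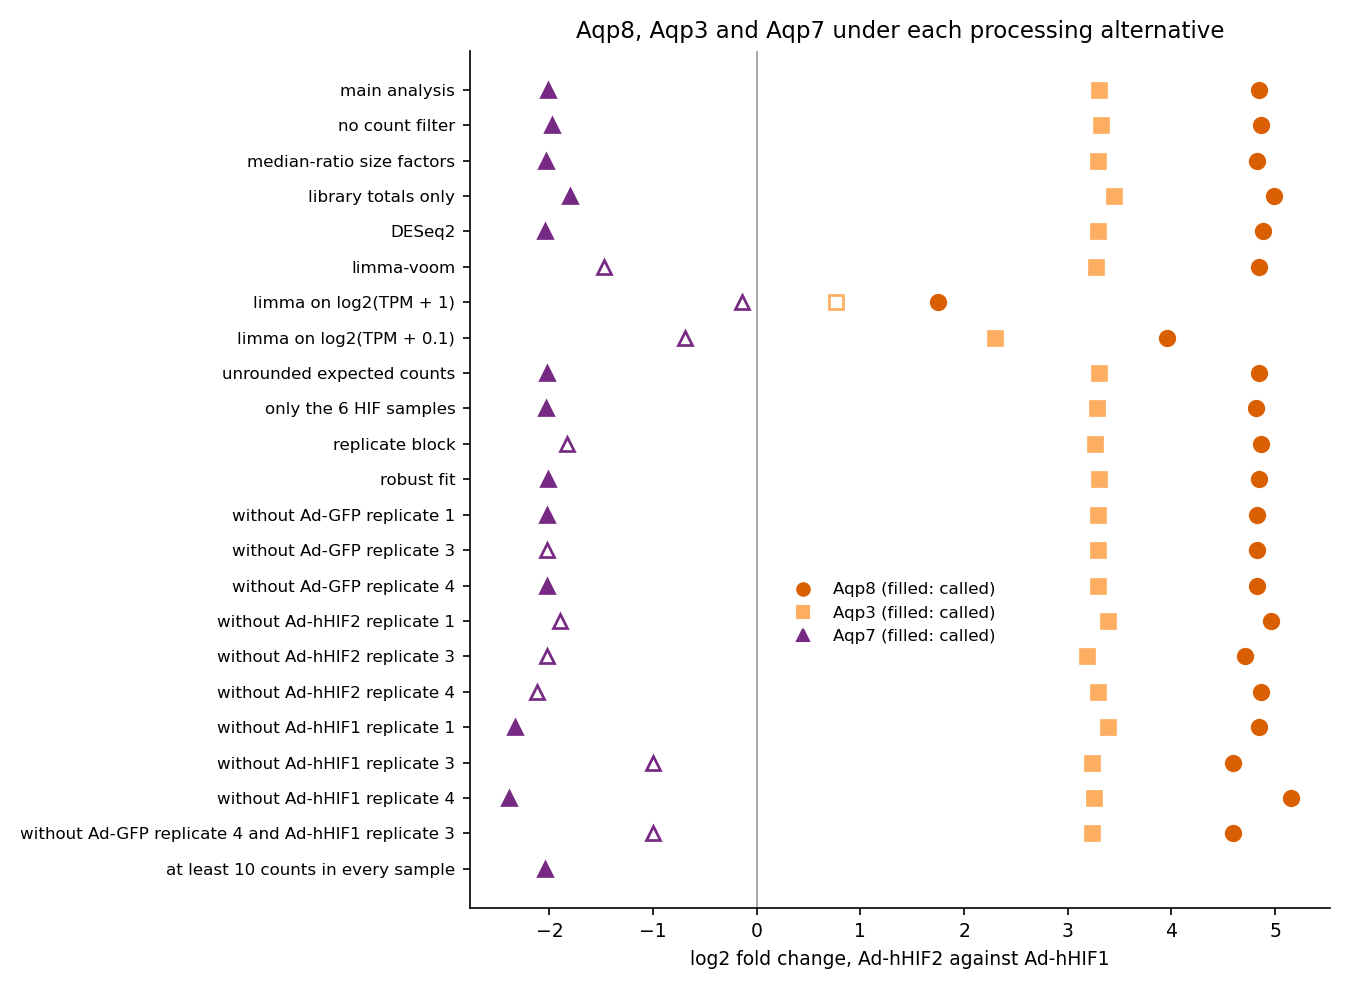
Log2 fold changes (horizontal axis) of Aqp8, Aqp3 and Aqp7 in Ad-hHIF2 against Ad-hHIF1 under each processing alternative (vertical axis), with filled symbols where the gene passed both thresholds. Aqp8 is filled throughout, Aqp3 is open on the log2(TPM + 1) scale only, and Aqp7 is open under 10 of its 22 alternatives. Aqp8 and Aqp3 have no symbol in the last line, since neither had 10 counts in every sample.

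**Figure D3:**
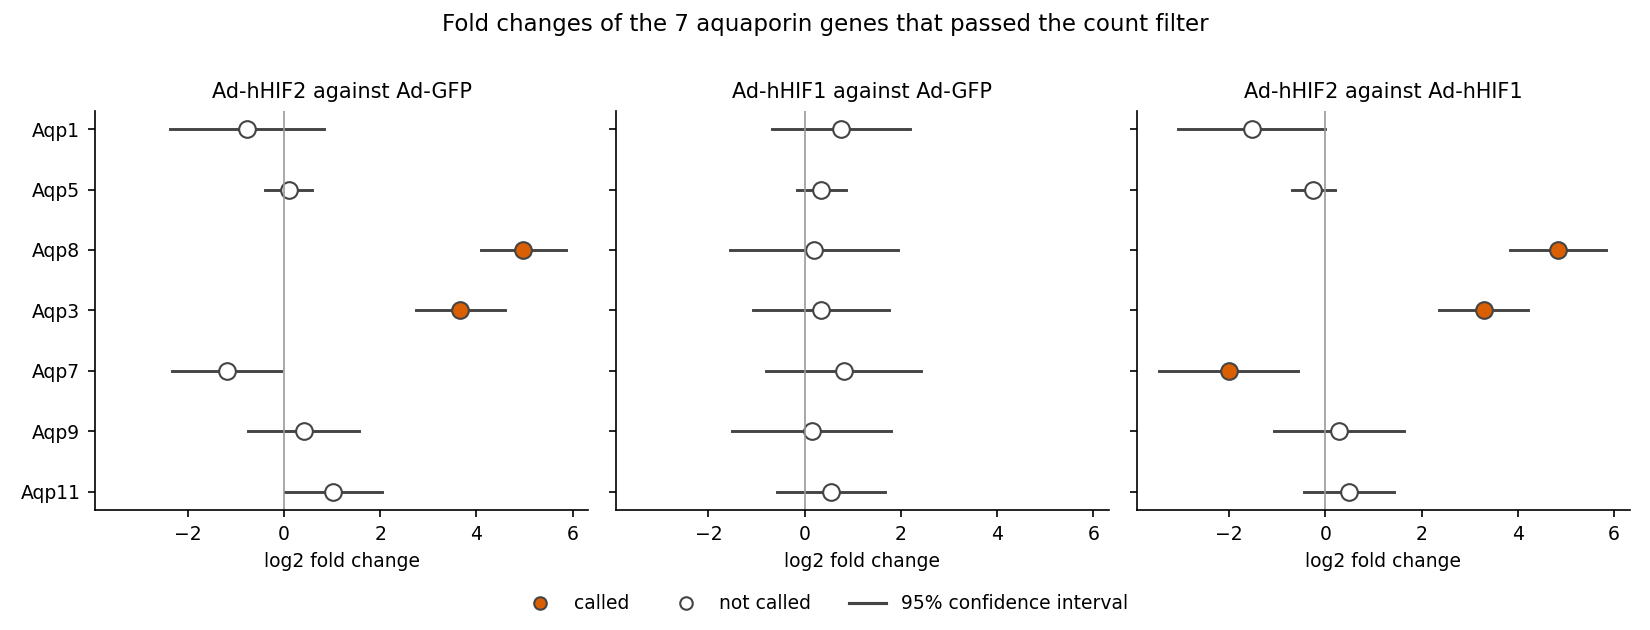
Log2 fold changes (horizontal axis) of the 7 tested aquaporin genes in 3 comparisons, with 95% confidence intervals as lines and filled points for genes that passed both thresholds. Aqp8 and Aqp3 are called wherever Ad-hHIF2 enters, at 4.98 and 3.67 against Ad-GFP, while every interval of Ad-hHIF1 against Ad-GFP includes 0.

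To compare genes with each other, CPM were divided by the effective length in kilobases that RSEM gave for the gene in each sample. For Aqp3 this length ran from 696.57 bases in Ad-GFP replicate 3 to 1630.31 bases in Ad-hHIF1 replicate 4. The Aqp3 lengths in Ad-GFP rest on 7 to 36 expected counts, so its level per length there is uncertain. By mean CPM in Ad-GFP, Aqp7 at 1.5 stood above Aqp3 at 0.646. In Ad-GFP, Aqp5 led at 3.16 ± 0.866 CPM per kb (SD, n = 3) and stood apart from the next gene. Aqp3 at 0.753, Aqp7 at 0.702, Aqp11 at 0.456, Aqp8 at 0.430, Aqp9 at 0.176 and Aqp1 at 0.175 CPM per kb followed, and each overlapped with its neighbour in that order. Aqp4 came last at 0.0219 CPM per kb, apart from Aqp1.

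In Ad-hHIF2 the order was another. Aqp8 led at 15.8 ± 2.87 CPM per kb, followed by Aqp3 at 5.24 ± 0.825, Aqp5 at 3.41 ± 0.431, Aqp11 at 0.965 ± 0.294 and Aqp7 at 0.303 ± 0.0472 CPM per kb (SD, n = 3 in each), and each of these stood apart from the next. Aqp9, Aqp1 and Aqp4 at the bottom overlapped with their neighbours. In Ad-hHIF1 Aqp5 again led at 4.08 ± 0.219 CPM per kb, apart from Aqp7 at 1.25 ± 1.12 CPM per kb, and the genes from Aqp7 down to Aqp9 overlapped with their neighbours.

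The summed level of the 8 genes was 6.17, 6.93 and 4.52 CPM per kb in Ad-GFP, 22.2, 29.5 and 26.5 in Ad-hHIF2 and 7.86, 8.93 and 6.58 in Ad-hHIF1. The Ad-hHIF2 mean was 4.44 times the Ad-GFP mean. Aqp8 and Aqp3 together made up 80.5% ± 1.92 of the sum in Ad-hHIF2, 19.7% ± 6.04 in Ad-GFP and 17.1% ± 7.99 in Ad-hHIF1 (SD, n = 3 in each). Without this pair, which was taken out because it was called, the sums were 5.03 ± 0.23 CPM per kb in Ad-hHIF2, 4.69 ± 0.85 in Ad-GFP and 6.50 ± 1.51 in Ad-hHIF1, a description with no test. Within Ad-hHIF2, Aqp8 was 3.04, 3.42 and 2.63 times the Aqp3 level per length, whereas in the other samples, which rest on few counts, this ratio ran from 0.137 to 6.71.

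**Figure D4:**
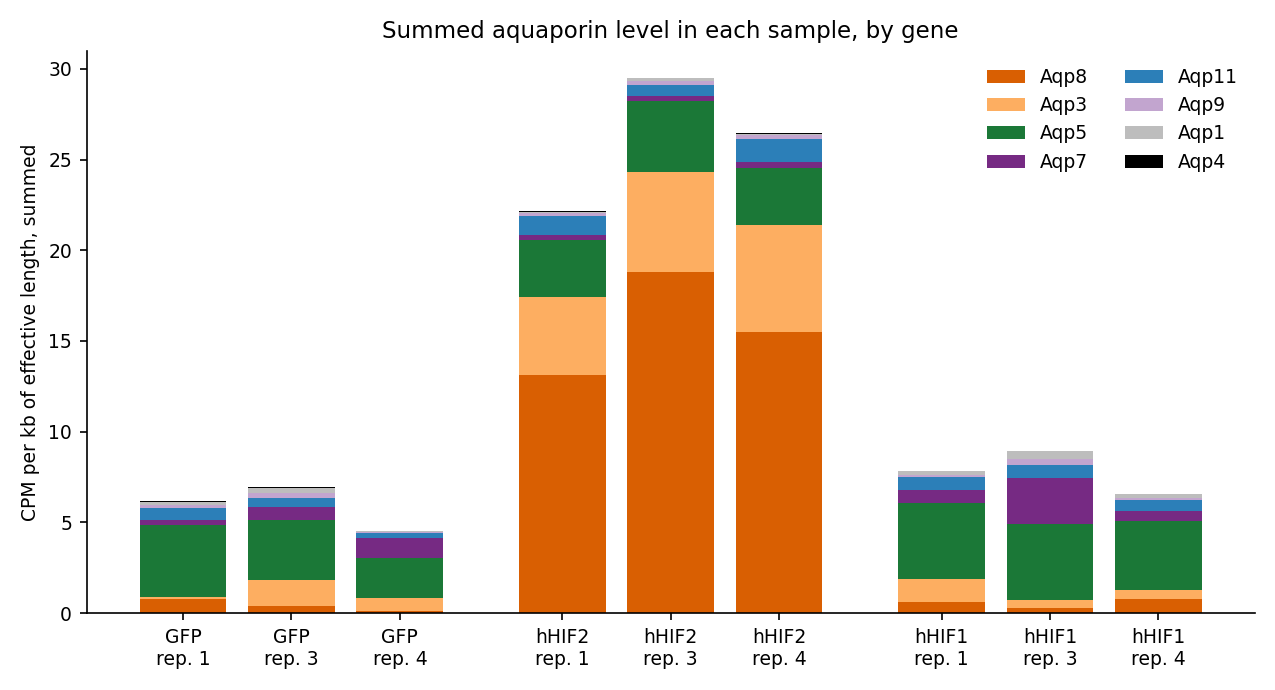
Stacked level of the 8 aquaporin genes in each sample (vertical axis, CPM per kb of effective length, from 0), coloured by gene, for replicates 1, 3 and 4 of each group. The Ad-hHIF2 samples reach 22.2 to 29.5 CPM per kb, of which Aqp8 and Aqp3 make up 78.5% to 82.3%, and the Aqp5 segment is of like height in all groups.

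The rest of the family gave almost no reads. Mip had reads in Ad-hHIF1 replicate 4 only, with 6 expected counts, Aqp2 had 1 in Ad-hHIF2 replicate 1 and 3 in Ad-hHIF1 replicate 1, and Aqp6 and Aqp12 had 0 in all samples. A count of 0 allows up to 0.15 CPM in the shallowest library.

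The genes on the chromosome next to Aqp8 and Aqp3 were looked up after their own values had been seen. Of the 3 nearest protein-coding genes on each side of Aqp8, 3 were tested in Ad-hHIF2 against Ad-GFP and 0 were called, beside 6.73% of all genes tested. The closest, Zkscan2 at 7379 bases after Aqp8, was not tested, and Kdm8 lies 1976671 bases away. Lcmt1, 31932 bases before Aqp8, had a log2 fold change of 0.44 (adjusted p = 0.0384), and Arhgap17 one of 0.74 (adjusted p = 0.000888), both under 2-fold. All 6 neighbours of Aqp3, Aqp7 among them, were tested and 0 were called. Nol6, 16243 bases after Aqp3, was at -0.55 (edgeR adjusted p = 0.0129), Nfx1 at -0.24 (adjusted p = 0.0337) and Ube2r2 at 0.37 (adjusted p = 0.0431), all under 2-fold. An adjusted p below 0.05 alone was found for 29.5% of all genes tested.

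Genes with a pattern like that of the pair were found by the root mean square difference of log2 CPM over the 9 samples, each gene centred on its own mean, among 13194 genes. These distances share the libraries and are a description only. Nearest to Aqp8 were Diras2 (0.59), Kpna7 (0.68), Chrna1 (0.68), Apoa4 (0.73) and RP23-387P23.4 (0.79). Diras2, a small GTPase gene, went from 0.682 ± 0.204 CPM in Ad-GFP to 21.4 ± 2.15 CPM in Ad-hHIF2 and was at 0.764 ± 0.381 CPM in Ad-hHIF1, and Apoa4, an apolipoprotein gene of enterocytes, from 0.0122 ± 0.0211 to 2.49 ± 0.292 CPM and 0.017 ± 0.0295 CPM (SD, n = 3). Nearest to Aqp3 were Fat2 (0.51), Cd109 (0.51), Fgf1 (0.52) and Apln (0.53). Cd109, a membrane-anchored glycoprotein gene, went from 4.36 ± 0.409 to 48.5 ± 0.808 CPM and was at 4.81 ± 0.83 CPM in Ad-hHIF1. Aqp3 itself ranked 43 in likeness to Aqp8, at 1.37.

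The aquaglyceroporins hand glycerol to and from lipid metabolism, so 14 genes of glycerol metabolism and triglyceride breakdown were read beside them. In Ad-hHIF2 against Ad-GFP, 12 were tested, 1 was called higher and 0 lower, with a median log2 fold change of -0.13. Here and for the next 3 lists, 6.73% of all genes tested were called, 2.9% higher and 3.83% lower, and the median over all genes was -0.01. The gene called was Gpd1l, a glycerol-3-phosphate dehydrogenase gene, at 1.01 (SE 0.165, adjusted p = 0.00252), just past the 2-fold minimum, and limma-voom did not call it. Lipe, the hormone-sensitive lipase gene, at 0.86, Abhd5, an activator of triglyceride lipase, at 0.55 and Plin2, a lipid droplet coat gene, at -0.62 passed the adjusted p but not the fold minimum.

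Hydrogen peroxide crosses some aquaporins, Aqp3 and Aqp8 among them. Of 23 genes that make or remove it, 19 were tested, 0 were called higher and 1 lower, with a median log2 fold change of -0.23. The gene called lower was Duox2, an epithelial peroxide-making oxidase, at -1.04 (SE 0.283, adjusted p = 0.0244), which is named because it was called. DESeq2 called 1 higher and 2 lower on this list, and limma-voom called 1 in each direction. Those with the smallest adjusted p were the peroxiredoxins Prdx2 at 0.85 and Prdx6 at -0.63 and the glutathione peroxidases Gpx1 at -0.42 and Gpx4 at -0.65, all under 2-fold.

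Of 15 genes of the osmotic stress response, 14 were tested and 0 were called, with a median log2 fold change of -0.02, while 7 passed the adjusted p alone, against 29.5% of all genes tested. edgeR found 10 of them at an unadjusted p below 0.05, against 41.2% of all genes, and DESeq2 and limma-voom also called 0. The volume-regulated channel subunits Lrrc8c and Lrrc8a were at 0.54 and 0.50, the taurine carrier Slc6a6 at 0.40 and the aldose reductase Akr1b3 at -0.57.

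Water follows ions across the epithelium. Of 20 intestinal ion and solute carriers, 9 were tested, 1 was called higher and 1 lower, with a median log2 fold change of 0.11. Slc4a4, a sodium bicarbonate cotransporter, rose by 1.48 (SE 0.0769), from 70.6 ± 1.82 to 196 ± 10.7 CPM. Atp1b1, a subunit of the sodium pump, fell by 1.02 on the log2 scale (SE 0.128), from 8.70 ± 0.593 to 4.29 ± 0.386 CPM (SD, n = 3 in each). The sodium/proton exchanger Slc9a2 at -0.78 and the potassium channel Kcnn4 at 0.67 passed the adjusted p only. In Ad-hHIF1 against Ad-GFP, 12 glycerol, 20 peroxide, 14 osmotic and 8 ion genes were tested and 0 were called by edgeR, DESeq2 or limma-voom. An unadjusted p below 0.05 in edgeR was found for 1, 1, 1 and 0 of them, against 8.59% of all genes tested. In Ad-hHIF2 against Ad-hHIF1, edgeR called 1 of 10 tested ion carriers higher and 1 lower and 0 genes of the other 3 lists, against 2.42% and 3.7% of all genes.

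**Figure D5:**
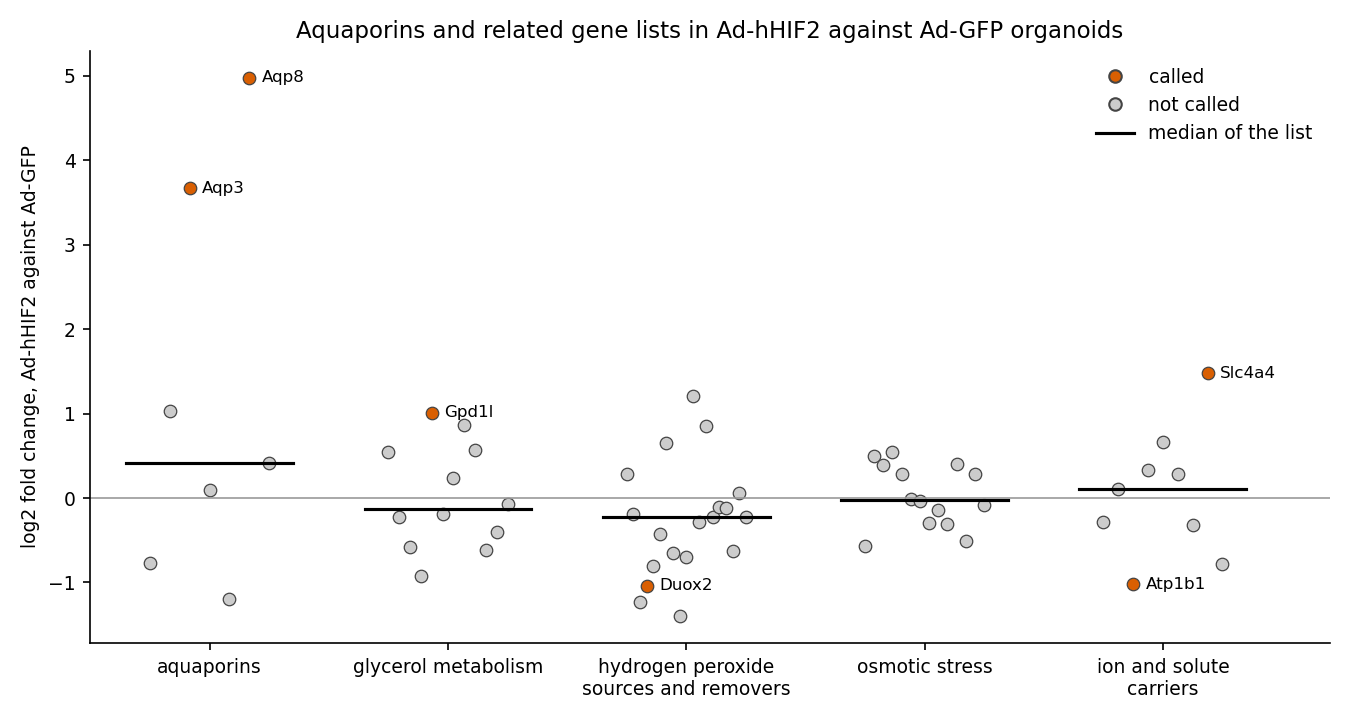
Log2 fold changes (vertical axis) in Ad-hHIF2 against Ad-GFP of the tested aquaporins and of the tested genes of 4 related lists, with called genes filled and named and the median of each list as a black line. Aqp8 at 4.98 and Aqp3 at 3.67 lie above every gene of the other lists, of which Slc4a4 at 1.48 is the highest.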

How the data were processed

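RNA of 9 organoid samples was sequenced. Per the study's methods, reads of low quality were dropped and RSEM was then used for quantification. The expected counts were deposited by the authors without normalization, beside TPM that the authors took from RSEM, and the deposited effective lengths (other unit, bases) were used for levels per kilobase. The RSEM version, aligner, genome build, annotation and strandedness are not given in the sources used here. RSEM shares out ambiguous reads, so a gene with near-identical copies carries added error.

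The expected counts were rounded to whole numbers. Low genes were removed with filterByExpr (minimum count 10), counts were scaled by TMM, and groups were compared with the quasi-likelihood test of edgeR 4.0.16 in R 4.3.3, with Benjamini-Hochberg adjustment over all genes tested. A call required a change of 2-fold or more and an adjusted p under 0.05. The fit of either HIF against Ad-GFP held those 6 samples, and the fit of the HIFs against each other all 9. CPM carry TMM factors over the 9 samples. Groups and replicate numbers came from the labels, and p-values measure the spread between these samples only. The tests were tried on simulated data.

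The alternatives tried were DESeq2 1.42.0, library totals, median-ratio size factors, a minimum of 10 counts in each sample, no count filter, limma-voom and limma on log2(TPM + 1) and log2(TPM + 0.1) (limma 3.58.1), unrounded counts, other samples in the fit, a replicate block, a robust fit, no fold minimum and each sample left out in turn. Leaving out Ad-GFP replicate 4 and Ad-hHIF1 replicate 3 together was added after the data were seen.

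All 8 members were named whatever their values. Of each related list, up to 4 genes with the smallest adjusted p in Ad-hHIF2 against Ad-GFP were named, and the 5 genes nearest in pattern to Aqp8 and Aqp3 (predicted genes with Gm or Rik names left out). Among the values not reported here are those of 1 of these genes and of 1 marker list that was lower in Ad-hHIF2 and stood apart in Ad-hHIF1 replicate 3. Members and lists were chosen with earlier results of these data known. Gene positions came from GENCODE M21 (GRCm38) by Ensembl identifier and promoters from RefSeq (GRCm38.p6) by symbol. Figures were drawn with matplotlib 3.10.9.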

Additional observations from a re-analysis of the deposited data

Results flagged for a closer look

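For 3 members the difference between the HIFs was itself past the threshold when the Ad-hHIF2 and Ad-hHIF1 samples were set against each other. The log2 fold change was 4.84 for Aqp8 and 3.30 for Aqp3, both higher in all 3 Ad-hHIF2 samples than in all 3 Ad-hHIF1 samples. It was -2.01 for Aqp7, which was lower in all 3 Ad-hHIF2 samples, and this value passed the threshold in 12 of 22 alternatives.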

How the results depend on the processing

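Over 398 alternative values of the members' log2 fold changes, 371 kept their direction and their side of the threshold, 13 changed sign, 12 lost a call and 2 gained one. The count of called members in Ad-hHIF2 against Ad-GFP was 2, and it was 0 with at least 10 counts in every sample, which removes Aqp8 and Aqp3 for their low controls, and 1 on the log2(TPM + 1) scale, where Aqp3 was at 0.78. With single samples left out it ran from 2 to 3. In Ad-hHIF2 against Ad-hHIF1 it was 3, 1 under each of these same settings, and 2 to 3 with single samples left out. In Ad-hHIF1 against Ad-GFP it was 0 under all 20 alternatives. Over all genes, the 1009 calls of Ad-hHIF2 against Ad-GFP became 237 on the log2(TPM + 1) scale, 4416 with no fold minimum and 774 to 981 with single samples left out. The 951 calls of Ad-hHIF2 against Ad-hHIF1 became 138 on the log2(TPM + 1) scale, 408 on the log2(TPM + 0.1) scale, 4008 with no fold minimum and 585 to 1160 with single samples left out. The 0 calls of Ad-hHIF1 against Ad-GFP became 138 with no count filter, 1 with DESeq2, 1 with limma-voom, 2 with all 9 samples in the fit, 2 with the robust fit and 8 without Ad-GFP replicate 4 and Ad-hHIF1 replicate 3, and stayed 0 with any single sample left out. The causes were not tested.

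The values that changed sign were as follows. With single samples left out, Aqp5 in Ad-hHIF2 against Ad-GFP ran from -0.08 to 0.29, and against Ad-hHIF1 it was 0.02 on the log2(TPM + 1) and 0.03 on the log2(TPM + 0.1) scale. In Ad-hHIF1 against Ad-GFP, with single samples left out, Aqp3 ran from -0.11 to 0.83, Aqp7 from -0.21 (without Ad-hHIF1 replicate 3) to 1.3, Aqp8 from -0.24 to 1.15 and Aqp9 from -0.46 to 0.50. Aqp9 was also -0.14 with limma-voom and -0.80 without Ad-GFP replicate 4 and Ad-hHIF1 replicate 3. In Ad-hHIF2 against Ad-hHIF1 it ran from -0.06 to 0.87.

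Whether the replicate numbers pair the samples was not settled. Deviations of same-numbered samples correlated at 0.07 to 0.134 in Ad-hHIF2 against Ad-GFP, above the -0.132 to 0.066 of differently numbered samples. In Ad-hHIF1 against Ad-GFP the values were -0.091 to 0.097 for same-numbered samples and -0.202 to 0.18 for the others. Between the HIFs they were -0.194 to -0.067 and -0.12 to 0.206. With the replicate number as a block, the called members were 2, 0 and 2 in these comparisons, and the called genes 1036, 0 and 820. The block moved Aqp7 between the HIFs to -1.83 (edgeR adjusted p = 0.0658) and changed no other call of a member. Depth limits Aqp4, Aqp9 and Aqp1 most, and the control levels of Aqp8 and Aqp3, which rest on 2 to 39 expected counts in Ad-GFP.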
